A study of Homo sapiens with 6 samples.

Results

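The E2F factors and the pocket proteins that bind them were read from PANC-1 cells, an established human line from a pancreatic ductal adenocarcinoma, after knockdown of the transcription factor SOX9. The genes were taken by symbol from the deposited table: E2F1 to E2F8, RB1 and RBL1, 10 genes of the 19830 listed, and all 10 were tested. Per the labels' protocols, 2 libraries came from cells given 25 nM of SOX9 siRNA and 2 from cells given 25 nM of control siRNA. Lipofectamine carried both siRNAs, and transfected cells were pooled at harvest, 48 hours later. Both groups were otherwise the same unmodified line, and the labels do not say whether the libraries of a group were separate cultures. What a p-value sets its difference against is thus the variation between libraries of the same siRNA, 2 per group, possibly technical in part or whole. The 2 SOX9 ChIP samples were not analysed here.

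E2F proteins bind gene promoters and set the entry of a cell into S phase. E2F1, E2F2 and E2F3 mostly activate. They pair with a DP protein and are held by RB1 until cyclin-dependent kinases phosphorylate it. E2F4 and E2F5 mostly repress, with RBL1 (p107) and RBL2 (p130), and in quiescent cells they sit on cell cycle promoters in the DREAM complex. E2F6 represses without any pocket protein, through a Polycomb-type complex. E2F7 and E2F8 bind DNA without DP and repress E2F targets late in S phase. In pancreatic ductal cancer the pathway is commonly released by loss of CDK inhibition rather than of RB1 itself.

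The promoters of several E2F genes are known to answer to E2F themselves, so they are shown first. Each line is the 100 bases before the RefSeq transcript start, 5′ to 3′ on the gene's strand, in build GRCh38.p14. Capitals mark any of the E2F words TTTCCCGC, TTTCGCGC, TTTGCCGC and TTTGGCGC on either strand, and the word TTTCGCGG on either strand, which was added after these promoters had been read. E2F4, with no match, is shown for contrast.
E2F1 (chr20:33686386-33686485, minus strand): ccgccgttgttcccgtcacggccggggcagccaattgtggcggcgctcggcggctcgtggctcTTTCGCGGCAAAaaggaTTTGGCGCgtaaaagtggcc
E2F2 (chr1:23531234-23531333, minus strand): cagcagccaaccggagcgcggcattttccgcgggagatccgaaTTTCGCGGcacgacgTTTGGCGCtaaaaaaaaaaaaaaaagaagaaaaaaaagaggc
E2F3 (chr6:20401779-20401878, plus strand): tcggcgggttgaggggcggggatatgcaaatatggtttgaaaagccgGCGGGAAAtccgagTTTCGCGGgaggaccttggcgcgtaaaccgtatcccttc
RBL1 (chr20:37095998-37096097, minus strand): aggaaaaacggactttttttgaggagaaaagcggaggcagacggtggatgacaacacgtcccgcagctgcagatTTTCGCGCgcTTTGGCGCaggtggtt
E2F4 (chr16:67192055-67192154, plus strand): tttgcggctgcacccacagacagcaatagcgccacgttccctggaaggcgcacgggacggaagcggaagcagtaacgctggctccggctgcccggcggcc

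In E2F1 the long capital run holds TTTCGCGG and, overlapping it on the other strand, TTTGCCGC. Its second match, TTTGGCGC, begins 20 bases before the start. E2F2 has TTTCGCGG from 57 and TTTGGCGC from 42 bases before the start. E2F3 has TTTCCCGC on the other strand from 53 and TTTCGCGG from 39 bases before the start. RBL1 carries TTTCGCGC and TTTGGCGC, from 26 and 16 bases before the start. The 4 E2F words were found in 404 of 35116 promoter windows of this length, 1.15%, and TTTCGCGG in 50. Both kinds together were in 5 windows, those of E2F1, E2F2, E2F3, UHRF1 and UNG. As TTTCGCGG was added after the E2F promoters had been read, E2F1, E2F2 and E2F3 are among the 5 through that choice. The count of 5 thus does not set them apart. E2F1 and E2F3 also share the unbroken stretch ttggcgcgtaaa, 12 bases, the longest shared by any pair of the promoters shown. It occurs in 2 of the 35116 windows, which are their own. The search looked for what the pair shares, so this count is no measure of rarity. These matches describe letters and do not show binding.

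Of the 10 genes, 8 had a promoter entry in the RefSeq table, and 4 of these held an E2F word in the 100 bases. Over all 10859 tested genes with an entry the share was 2.33%. E2F4, E2F6 and E2F7 had no match in the whole window from 250 bases before to 50 after the start. The RB1 entry starts a transcript 173 kb inside the gene, so its main promoter was not searched. E2F3 has a further entry 1.74 kb downstream of the start shown, with no match. The deposited table has 1 value for E2F3, so transcripts from these starts could not be told apart. No promoter of E2F5 or E2F8 was matched.

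**Figure D1:**
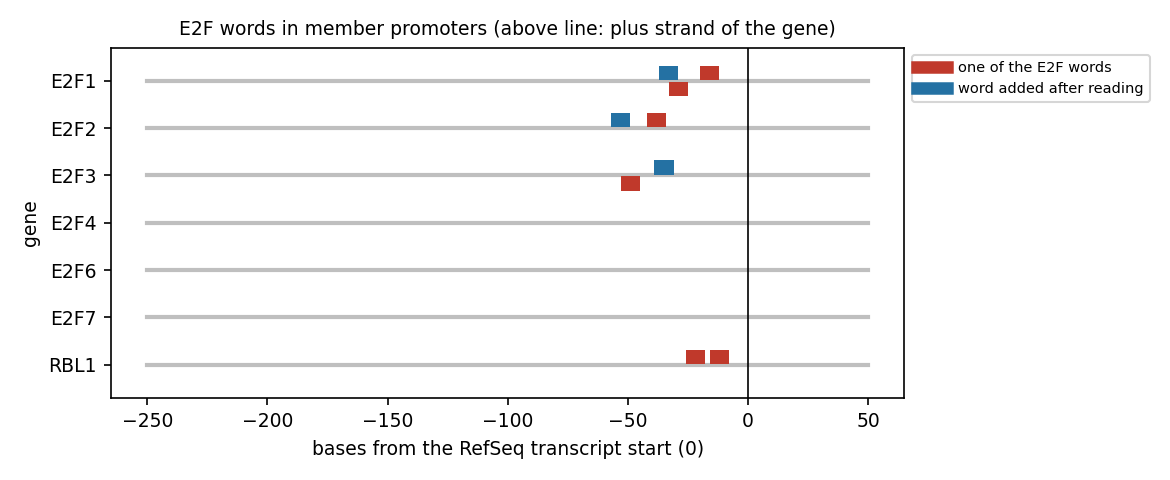
E2F words in the promoters of the 7 genes whose RefSeq entry is at the gene's start, plotted against distance in bases from that start. Red blocks are the 4 E2F words and blue blocks the added word, above the line on the gene's own strand and below it on the other. All blocks of E2F1, E2F2, E2F3 and RBL1 lie within 57 bases before the start, and E2F4, E2F6 and E2F7 have none.

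None of the 10 genes passed the adjusted threshold, and all 10 had a negative log2 fold change. The authors' deposited table gave values from -0.70 for E2F3 to -0.03 for RBL1, with a median of -0.40 over the 10. Fold changes are read as SOX9 siRNA over control siRNA, since the headers name no numerator and SOX9 itself was negative. SOX9 stood at 55.9% of control (95% interval 39.2% to 79.8%), and the authors' deposited table put its adjusted p at 0.0643. Every direction would turn if that reading were wrong, and in bulk RNA fewer cycling cells and less RNA per cell cannot be told apart.

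At an adjusted p under 0.05, the call rule used throughout, 0 of 10 were called, against a background of 1.81% of the 14063 tested genes, 0.939% lower and 0.868% higher. At an unadjusted p under 0.05, E2F3 alone was lower, 1 of 10 against 6.15% of all tested genes, and 0 were higher against 4.98%. With 10 genes, 1 gene is the smallest step, so the members' shares are near the background. The negative sign of all 10 is set beside 56.2% negative among the 5975 tested genes of the same range of mean count, whose median was -0.04. RBL1 turned to a log2 value of 0.0099 when that median was subtracted, a check added after the values were seen, and the other 9 kept their sign.

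The values of each library are not in the table, so the level in each group was derived from the authors' mean normalized count and fold change. This weights the 4 libraries equally and has no spread of its own. Counts are not per length, so a higher count in 1 gene than in another does not show more transcripts of it.

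E2F3, an activator tied closely to proliferation, had the lowest value. Its derived level was 1975 normalized counts in SOX9 siRNA libraries and 3216 in control siRNA libraries, which is 61.4% of control with a 95% interval from 44.2% to 85.3%. In the authors' deposited table the log2 fold change of E2F3 was -0.70 ± 0.24 (standard error), and its adjusted p was 0.121 (unadjusted 0.00365). It ranked 425 by p among the tested genes. E2F3 was the 1 gene of the 10 whose interval lay wholly below 100% of control. A call at its standard error needed 57.3% of control or lower.

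E2F1, the founding activator, which can also drive apoptosis, was derived at 3525 normalized counts in SOX9 siRNA libraries and 4628 in control siRNA libraries. That is 76.2% of control, with an interval from 51.4% to 113%, and the authors' deposited table put its adjusted p at 0.69. E2F2, an activator with a narrower expression, was derived at 693 in SOX9 siRNA libraries and 925 in control siRNA libraries. Its 74.9% of control had the widest log2 interval of the 10, from 42.2% to 133%, and its adjusted p was 0.828 in the authors' deposited table. Both point estimates were thus nearly equal, and both intervals cover 100%.

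The repressors bound by p107 and p130 had values nearer to control. E2F4, the most widely expressed E2F in many tissues, was derived at 4312 normalized counts in SOX9 siRNA libraries and 4911 in control siRNA libraries. It stood at 87.8% of control, from 69.8% to 110%, and the authors' deposited table put its adjusted p at 0.791. E2F5 was derived at 961 in SOX9 siRNA libraries and 1071 in control siRNA libraries, 89.8% of control with an interval from 68.0% to 119%. Its adjusted p was 0.891 in the authors' deposited table. The intervals of E2F4 and E2F5 overlapped that of E2F3, and the difference between genes was not tested.

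E2F6, the repressor without a pocket-binding part, was derived at 1375 normalized counts in SOX9 siRNA libraries and 1832 in control siRNA libraries. It stood at 75.1% of control, from 54.4% to 104%, and the authors' deposited table put its adjusted p at 0.544. The atypical E2F7 was derived at 920 in SOX9 siRNA libraries and 1215 in control siRNA libraries, 75.7% of control with an interval from 54.2% to 106%. E2F8, its close relative, was derived at 599 in SOX9 siRNA libraries and 922 in control siRNA libraries. E2F8 had the second lowest point estimate, 64.9% of control with an interval from 41.4% to 102%. Adjusted p-values were 0.582 for E2F7 and 0.484 for E2F8 in the authors' deposited table.

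The pocket proteins were closest to control. RB1, the retinoblastoma tumour suppressor, was derived at 3140 normalized counts in SOX9 siRNA libraries and 3298 in control siRNA libraries. Its 95.2% of control had an interval from 75.9% to 119%, and its adjusted p was 0.956 in the authors' deposited table. RBL1, which binds mainly E2F4, was derived at 1570 in SOX9 siRNA libraries and 1600 in control siRNA libraries. It stood at 98.2% of control, from 78.2% to 123%, and the authors' deposited table put its adjusted p at 0.985. RBL2, the third pocket gene, is not among the 10 and stood at 112% of control with an interval from 79.5% to 159%. RBL1 thus held a pair of E2F words and a value near control, while E2F1, E2F2 and E2F3 held such words and lower point estimates. E2F6 and E2F7, without a word, were at 75.1% and 75.7%, close to E2F1 at 76.2% and E2F2 at 74.9%. E2F4, also without one, was at 87.8%. A relation between words and values was not tested.

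**Figure D2:**
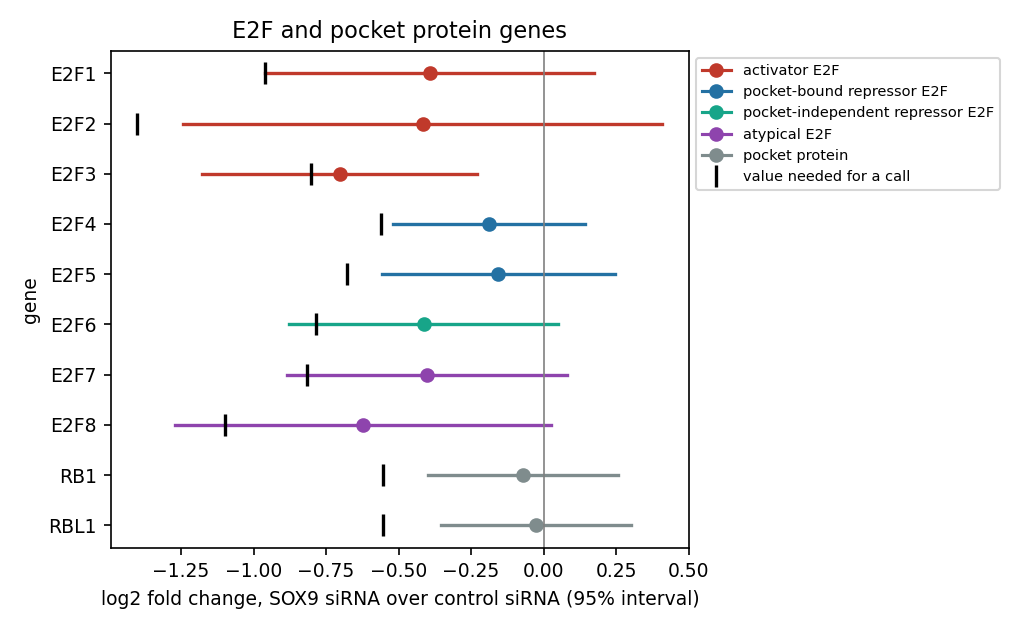
Log2 fold change of each gene, SOX9 siRNA over control siRNA, with its 95% Wald interval, coloured by class. Black ticks mark the negative value that a call needed at that gene's standard error. The interval of E2F3 alone lies below 0, and no point reaches its tick.

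The precision of these values differed between the genes. Standard errors on the log2 scale ran from 0.17 for RB1, RBL1 and E2F4 to 0.42 for E2F2 in the authors' deposited table. Each was set against tested genes with a mean count within 1.5-fold of its own. The error of E2F2 was above that of 99.3% of such genes, E2F1 above 97.3%, E2F8 above 95.04% and E2F3 above 91.1%. For E2F6 and E2F7 the shares were 85.1% and 83.2%. E2F5 lay near the middle at 51.9%, with E2F4 at 40.9%, RB1 at 28.4% and RBL1 at 6.57%.

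The standard errors correspond to an approximate coefficient of variation between libraries of 1 siRNA of 29.0% for E2F2, 22.7% for E2F8 and 19.97% for E2F1. For RB1 and RBL1 it was 11.4% and 11.3%. This reading takes the error as a counting part plus a dispersion part that DESeq2 has already drawn toward other genes. The change needed for a call was larger where the error was larger. E2F2 would have had to reach 37.9% of control, E2F8 46.7% and E2F1 51.4%, whereas 68.2% would have sufficed for RB1.

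**Figure D3:**
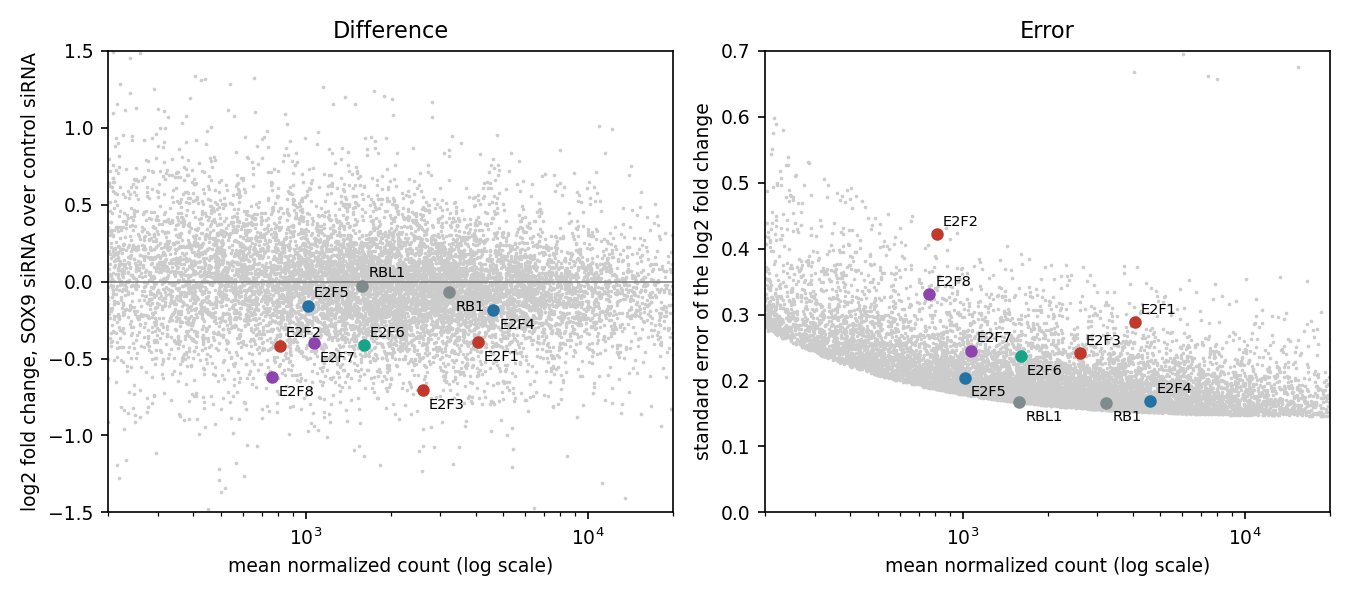
Log2 fold change (left) and its standard error (right) against mean normalized count on a log axis, with tested genes in grey and the 10 genes coloured by class as in the plot of fold changes; the axes leave out genes beyond their limits. On the right RB1, RBL1 and E2F4 lie in the dense lower band of the grey points, and E2F1, E2F2 and E2F8 lie above most of them.

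For the lists of partners and targets, errors were set against a common median. It was taken over all tested genes in the range of mean count of the 10 genes, not within 1.5-fold of each gene. Within 1.5-fold, the median error was 0.216 around E2F8, the lowest mean count of the 10, and 0.174 around E2F4, the highest. How many errors lie above the common median thus also depends on mean count. Of the 64 tested E2F target genes of the G1/S transition and replication, 41 had mean counts in the range of the 10 genes, and 38 of these 41 had an error above the 0.189 median of the 5975 tested genes there. Their own median was 0.242. G1 cyclins and kinases had 5 of 6 above it, with a median of 0.274. DREAM and MuvB genes had 4 of 4 above it (median 0.227), mitotic genes 4 of 4 (0.202), degradation genes 4 of 5 (0.199) and the E2F6 complex 5 of 7 (0.199). CDK inhibitors had 2 of 3 above it (0.196), apoptosis genes 3 of 6 (0.203) and RB corepressors 3 of 8 (0.169).

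Of the 64 tested target genes, 61 were negative, beside 52.1% of all tested genes. Their median log2 fold change was -0.40, beside -0.02 over all tested genes. At an unadjusted p under 0.05, 14 were lower and 1 higher, beside 6.15% and 4.98% of all tested genes. The 1 called gene was in the other direction: GINS1, a subunit of the replicative helicase, rose to 169% of control (95% interval 128% to 223%), and the authors' deposited table put its adjusted p at 0.0186. CHAF1B, a chromatin assembly factor, stood at 54.3% (36.0% to 82.0%), the helicase subunit MCM2 at 58.6% (39.6% to 86.6%) and the deubiquitinase USP1 at 66.4% (49.6% to 89.0%). None of these passed, with adjusted p-values of 0.121, 0.17 and 0.158 in the authors' deposited table. RRM2, a ribonucleotide reductase subunit and the gene of the list with the highest mean count, was at 75.3% (51.6% to 110%). More negative than E2F1 were 33 of the 64, and more negative than E2F3 were 4.

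An E2F word in the 100 bases was present for 16 of the 52 target genes with a RefSeq promoter, 30.8%. Over all 10859 tested genes with one it was 253 genes, 2.33%. The 253 genes had a median log2 fold change of -0.07 and 61.7% negative values, beside -0.01 and 52.1% for the 10606 without a word. Within the range of mean count of the 10 genes, the medians were -0.09 over 132 genes with a word and -0.04 over 4805 without. Of the 253, 7 were called, 2 higher and 5 lower, beside 201 called of the 10606 without a word, so the count is near the background of 1.81%. UHRF1, a DNA methylation regulator, and UNG, a uracil DNA glycosylase, the other genes with both kinds of word, stood at 74.5% (54.0% to 103%) and 58.5% (38.7% to 88.5%) of control. Their adjusted p-values were 0.516 and 0.213 in the authors' deposited table, and both belong to the target list.

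Partners and upstream kinases were mostly negative without calls. TFDP1, the main DP partner of E2F1 to E2F5, was at 63.7% of control (45.8% to 88.5%) and TFDP2 at 86.5% (65.5% to 114%). Among 10 tested G1 cyclins and kinases 9 were negative, with a median of -0.41 and 0 calls. At an unadjusted p under 0.05, 6 were lower, beside 6.15% of all tested genes. CCNE1, the cyclin that activates CDK2, was at 55.1% (35.1% to 86.5%) and CDK2 at 66.9% (48.4% to 92.5%). CCNA2, the S-phase cyclin, was at 75.7% (60.8% to 94.1%) and CCND1, a cyclin of CDK4 and CDK6, at 76.4% (59.0% to 98.8%). Adjusted p-values of these 6 genes ran from 0.169 for TFDP1 to 0.819 for TFDP2 in the authors' deposited table.

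CDK inhibitors were split, with 2 of 5 tested negative, a median of 0.08 and 0 calls. CDKN1A, the p53-induced inhibitor p21, was at 115% of control (91.7% to 145%) and CDKN1B, or p27, at 105% (80.7% to 138%). CDKN2C, which inhibits CDK4 and CDK6, was at 87.0% (65.0% to 116%), and CDKN1C, an inhibitor also called p57, at 174% (75.7% to 401%). CDKN2A and CDKN2B were also listed but had no row in the deposited table, so they have no value here. Each of these intervals includes 100%. Adjusted p-values ran from 0.713 for CDKN1C to 0.965 for CDKN1B in the authors' deposited table.

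The MuvB core passes from repression with E2F4 to activation of mitotic genes. Of the 9 genes of the DREAM and MuvB list, 7 were negative, beside 52.1% of all tested genes, with a median of -0.40. The 1 called gene was lower, beside 0.939% of all tested genes. At an unadjusted p under 0.05, 4 were lower and 0 higher, beside 6.15% and 4.98% of all tested genes. RBBP4, a histone-binding subunit also found in several other chromatin complexes, fell to 61.7% of control (46.7% to 81.4%), and the authors' deposited table put its adjusted p at 0.0416. LIN9 of the MuvB core was at 64.7% (46.7% to 89.7%), the mitotic activator FOXM1 at 73.6% (55.1% to 98.5%) and MYBL2, also called B-Myb, at 69.6% (48.6% to 99.6%). Their adjusted p-values were 0.188, 0.401 and 0.44 in the authors' deposited table. MYBL1, with the highest mean count of the list, was at 100.2% (81.1% to 124%).

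Mitotic genes that DREAM binds had 22 of 23 negative values, beside 52.1% of all tested genes, and a median of -0.23. The 1 called gene was TOP2A, beside 0.939% of all tested genes called lower. At an unadjusted p under 0.05, 4 were lower and 0 higher, beside 6.15% and 4.98% of all tested genes. TOP2A, the topoisomerase that untangles chromosomes, fell to 62.8% of control (48.5% to 81.3%), and the authors' deposited table put its adjusted p at 0.0329. CDK1, AURKB and KIF2C, a mitotic kinase pair and a microtubule depolymerase, were at 67.8% (53.4% to 86.1%), 65.3% (49.1% to 86.8%) and 66.7% (50.04% to 89.0%). They had adjusted p-values of 0.0667, 0.114 and 0.154 in the authors' deposited table.

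Genes of the E2F6 complex were negative in 8 of 10, beside 52.1% of all tested genes, with a median of -0.20, and 0 were called. MAX and RYBP, subunits of that complex, were at 70.4% (52.8% to 93.9%) and 72.7% (55.2% to 95.6%), WDR5 at 82.5% (63.4% to 107%) and the heterochromatin protein CBX3 at 86.0% (68.1% to 108%). RB corepressors had a median of -0.05 with 10 of 15 negative and 0 called. SUV39H1, a histone methyltransferase that RB1 recruits, was at 75.5% (54.5% to 105%), RBBP7 at 88.7% (72.0% to 109%), and the deacetylases HDAC2 and HDAC1 at 89.6% (72.4% to 111%) and 95.2% (77.3% to 117%). Of 8 genes of E2F and cyclin degradation, 6 were negative and 0 called, with a median of -0.10. SKP2, which recruits p27 and E2F1 for degradation, was at 74.6% (57.7% to 96.5%), its partner SKP1 at 88.8% (72.4% to 109%) and CKS1B at 115% (87.9% to 151%). In the authors' deposited table the smallest adjusted p of these 3 lists was 0.264, for MAX.

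Of 11 tested apoptosis genes linked to E2F1, 5 were negative and 6 positive, with a median of 0.00. APAF1, the apoptosome scaffold and a known E2F1 target, rose to 179% of control (128% to 252%), and the authors' deposited table put its adjusted p at 0.0451. BCL2L11, or BIM, was at 153% (110% to 213%), CASP8 at 127% (100.2% to 161%) and PMAIP1, or NOXA, at 63.9% (41.8% to 97.7%). None of these passed, with adjusted p-values from 0.21 for BCL2L11 to 0.441 for CASP8 in the authors' deposited table. At an unadjusted p under 0.05, 3 of the 11 were higher and 1 lower, beside 4.98% and 6.15% of all tested genes.

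**Figure D4:**
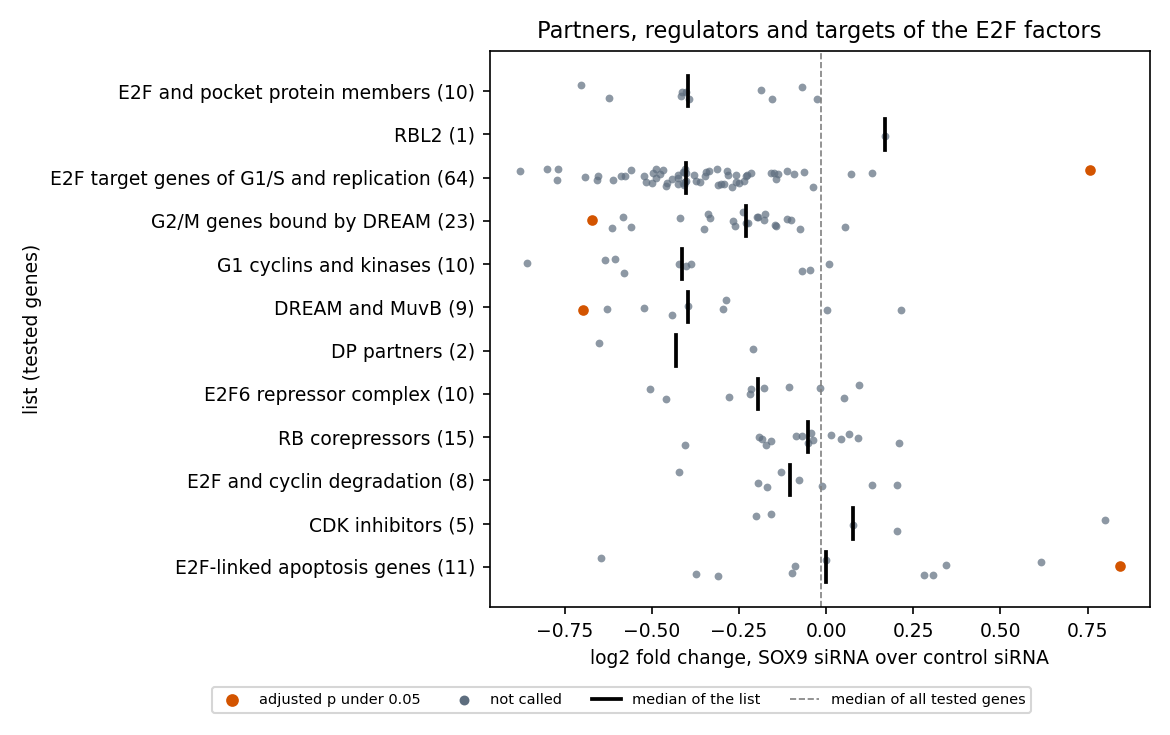
Log2 fold change, SOX9 siRNA over control siRNA, of every tested gene in each list, with list medians as black bars, called genes in orange and the median of all tested genes as a dashed line; vertical scatter within a row has no meaning. The E2F targets, G1 cyclins, DREAM genes and the 10 E2F and pocket genes have medians near -0.40, and the CDK inhibitors and apoptosis genes lie around 0.

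Over all 11 lists of partners, regulators and targets, 158 genes were tested and 132 were negative, beside 52.1% of all tested genes, with a median of -0.26. Of these 4 were called, RBBP4 and TOP2A lower and GINS1 and APAF1 higher, beside a background of 1.81%. The calls of RBBP4 and APAF1 were lost when p-values were adjusted over every gene, and all 4 were lost with an empirical null. At an unadjusted p under 0.05, 33 were lower and 4 higher, beside 6.15% and 4.98% of all tested genes. The lists were chosen with earlier results known, and no test of a list was made.

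The labelled cell type was checked against its markers. All 7 duct epithelial markers were in the table, and the keratins KRT8, KRT18 and KRT19 had mean normalized counts of 203350, 130452 and 99583 in the authors' deposited table. EPCAM and CDH1 had 1699 and 1426. KRT7 at 354 and MUC1 at 96.3 lay below the fibroblast marker COL1A1 at 449. The 3 acinar, 1 endocrine and 4 endothelial markers listed there were untested, with mean counts of at most 3.87. Of other types, 2 leukocyte and 3 fibroblast markers were tested, and the sums of the listed markers' mean counts were 162 and 809. The leukocyte markers CD14 and CORO1A were at 232% (101% to 532%) and 107% (65.6% to 173%) of control. Neither passed, with adjusted p-values of 0.44 and 0.974 in the authors' deposited table. COL1A1, a collagen, rose to 197% of control (133% to 293%), and the cell adhesion gene EPCAM fell to 29.5% (19.4% to 44.8%). The authors' deposited table put their adjusted p-values at 0.0445 and 1.85e-05. The other 6 duct markers were above control without passing, from KRT7 at 104% to CDH1 at 154%, with KRT8 at 147% (adjusted p 0.0786 in the authors' deposited table). The other 2 tested fibroblast markers did not pass either, COL3A1 at 80.9% (40.7% to 161%) and PDGFRB at 101% (38.6% to 262%). The part of these markers in the E2F values was not tested.

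Reads shared with other genes could bear on a few values. RefSeq lists 4 pseudogene copies of E2F6, 2 of E2F3 and 1 of E2F4. Whether these copies have rows here was not checked, and how their reads were assigned was not tested. RB1 contains LPAR6, a receptor gene that the authors' deposited table lists at 155 normalized counts on average and a log2 value of 0.20. E2F5 overlaps RBIS, whose log2 fold change was -0.21, and the authors' deposited table put its adjusted p at 0.826. Whether counting used strand is not stated by the labels or headers, so E2F5 and RBIS cannot be separated fully.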

How the data were processed

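RNA of the 4 siRNA libraries was processed by the submitters, who list DESeq2 1.18.1, HISAT2 2.0.5 and featureCounts in the submitters' processing notes, without settings, and builds hg19 and mm10 without a role. The 1 deposited file is a table from DESeq2, per the file headers, with no library columns. The deposited mean normalized count is a signal scaled by size factors and averaged over libraries. Per the file headers, the log2 columns are the fold change and its standard error, and the Wald statistic is a score equal to their ratio. The deposited p-value columns hold raw and Benjamini-Hochberg adjusted values, adjusted ones for 14063 genes, called tested. Depth of single libraries is unknown.

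From these values 95% intervals (1.96 standard errors), group levels and the change needed for a call, at the largest called p of 0.000901, were computed in Python 3.11.15 with pandas 2.3.3 and scipy 1.17.1. Members and lists were chosen with earlier results of these data known. Named genes are all members and, in each list, called genes, the gene with the highest mean count and up to 3 more by smallest p; SOX9, marker genes, UHRF1 and UNG were added, UHRF1 and UNG after their promoters and values were seen. A gene this rule names is not reported here. List entries in the table were 162 of 166, KMT5B and KMT5C under older symbols. Promoters and gene spans are RefSeq, GRCh38.p14. Alternatives were adjustment over all genes, minimum mean counts, centring, an empirical null and other thresholds. The call settings were tested on simulated fold changes, which took the deposited standard errors as right, and the word search on a made sequence. Intervals, group levels, the change needed for a call and list matching were not tested in this way.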

Additional observations from a re-analysis of the deposited data

How the results depend on the processing

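The count of E2F and pocket protein genes called was 0 in either direction under all 8 alternatives, at adjusted p under 0.01 and 0.1, mean counts of at least 100 and 1000, adjustment over every gene, both centrings and the empirical null. E2F2 and E2F8 fall below the minimum of 1000. E2F3 came closest, with adjusted p from 0.105 to 0.328 over the alternatives. Centring on the median of tested genes of like mean count, an alternative chosen after seeing the data, turned RBL1 to 0.0099, by its construction, as it adds 0.04 to each value. Among partner and target genes, calls were 2 higher and 2 lower as reported. They were 1 and 1 when adjusted over every gene, as more genes were tested, and 0 and 0 with the empirical null, as its spread was 1.13. At an adjusted p under 0.01 they were 0 and 0, and 2 higher and 1 lower with the added centring. At an adjusted p under 0.1 they were 2 higher and 3 lower. RBBP4 lost its call under 4 alternatives, APAF1 under 3, and TOP2A and GINS1 under 2. No paired analysis was possible because the table holds no value per library, and for the same reason no replicate could be left out. The 2 libraries per siRNA limit every value.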
